A study of Mus musculus and Homo sapiens with 8 samples.

Results

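The genes described here encode nucleolar and ribosome assembly factors, subunits of RNA polymerase I, and enzymes that supply polyamines and nucleotides. They are a list of 38 human symbols, written with only the first letter capital for mouse. Of these, 37 were listed among the 20296 genes of the KU812 tables and 38 among the 17097 genes of the LSK tables. EIF4A1 was the symbol that the KU812 tables did not list. Every listed gene on the list also passed the filter on low counts in its experiment. No measured value was used to choose them by rule, although results of these data were known when the list was drawn up.

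ANP32B, a histone-binding acidic protein of the nucleus, was depleted or deleted in 2 experiments, with RNA sequenced from 8 libraries. KU812, an established line from a chronic myelogenous leukemia, carried a short hairpin RNA against ANP32B (shANP32B, n = 2) or a control hairpin (shNC, n = 2). The mouse samples were LSK cells of the bone marrow, the lineage-negative gate with Sca-1 and c-Kit that holds stem cells and multipotent progenitors, from C57BL/6 mice. They were Anp32b-KO (KO, n = 2) or wild type (WT, n = 2). No source used here gives the deleted part of Anp32b, the promoter behind any Cre, the ages of the mice, any pooling of animals or the hairpin sequences. The file headers call both shANP32B libraries by the same hairpin name, so no second hairpin against ANP32B was analysed here. Whether replicates were separate animals or cultures is not stated in the labels, and each p-value therefore measures only the spread among these libraries, which may be technical.

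Ribosomes are built in the nucleolus. RNA polymerase I makes the long ribosomal RNA precursor there, small nucleolar ribonucleoproteins modify it, and assembly factors fold and cut it while ribosomal proteins join, before the small and large subunits leave for the cytoplasm. In growing blood cells this pathway takes up much of the cell's synthetic capacity, and the transcription factor MYC is a well known activator of many of its genes through E-box sites with the letters CACGTG.

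The promoters of the mouse genes were searched for this letter string, because a shared E-box is the sequence feature best known in this pathway. RefSeq promoter windows on GRCm38.p6, 250 bases before to 50 bases after a start site, were available for 34 of the 38 genes. Bop1, Fbl, Rrp12 and Srm are named only. CACGTG, which reads the same on both strands, occurred in 8 of these 34 genes (23.5%), namely Eif4a1, Mybbp1a, Nme1, Nop2, Pes1, Pus7, Utp20 and Wdr43. Among all 32851 windows of the same length it occurred in 7.15%, and 8.09% of all 27025 genes had it in at least 1 window. This comparison is a description, with no test, and a match is a letter string and not a shown site.

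The string began upstream of the start site in Eif4a1 (at -189), Nop2 (at -60) and Nme1, and within the transcribed bases in the other 5 genes. Nme1 held separate strings, at -29 from 1 start site and at -18 from another. In KU812 cells the 7 listed counterparts of the genes with the string had log2 fold changes from -0.32 (WDR43) to 0.45 (NME1). None passed the threshold described below. Below are the upstream bases of Nop2, a ribosomal RNA methyltransferase, and Eif4a1, a translation initiation helicase, with the string in capitals. Odc1, which encodes ornithine decarboxylase, had the smallest unadjusted p of the list in LSK cells and is set beside them as a window without the string. Bases outside the windows were not searched, so the string may occur elsewhere in or near Odc1. The bases lie outside every annotated exon, at chr6:125131633-125131882 (plus strand), chr11:69672424-69672673 (minus strand) and chr12:17544623-17544793 (plus strand), and are written 5′ to 3′ along each gene.
Nop2: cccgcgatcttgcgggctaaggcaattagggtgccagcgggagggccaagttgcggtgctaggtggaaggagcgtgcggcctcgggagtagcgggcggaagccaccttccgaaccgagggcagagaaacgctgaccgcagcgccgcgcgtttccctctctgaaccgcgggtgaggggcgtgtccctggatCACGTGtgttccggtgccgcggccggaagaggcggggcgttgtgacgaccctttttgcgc
Eif4a1: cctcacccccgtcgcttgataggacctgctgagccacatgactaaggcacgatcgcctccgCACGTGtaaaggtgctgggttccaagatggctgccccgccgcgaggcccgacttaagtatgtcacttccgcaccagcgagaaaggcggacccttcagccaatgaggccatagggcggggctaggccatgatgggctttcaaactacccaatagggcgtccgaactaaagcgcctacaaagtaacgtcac
Odc1: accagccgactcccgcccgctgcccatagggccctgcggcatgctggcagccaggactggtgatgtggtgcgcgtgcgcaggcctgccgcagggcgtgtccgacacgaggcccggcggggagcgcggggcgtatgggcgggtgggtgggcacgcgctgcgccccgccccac
GC content was 67.6% in the Nop2 window of 250 bases, 58.8% in the Eif4a1 window of 250 bases and 77.2% in the Odc1 window of 171 bases.

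Counts per library totalled 24416691 to 28209409 in KU812 cells and 10549358 to 15683480 in LSK cells. ANP32B stood at 40.4 and 38.2 CPM (counts scaled to a common library size) in shANP32B cells, against 250.2 and 286 CPM in shNC cells, and fell by 2.77 on the log2 scale (adjusted p = 5.18e-08, edgeR quasi-likelihood test with Benjamini-Hochberg adjustment). Anp32b stood at 201 and 249 CPM in KO cells, against 794 and 730 CPM in WT cells, a log2 fold change of -1.76 (adjusted p = 0.148). The 13 basophil line markers checked in KU812 cells and the 10 stem and progenitor markers checked in LSK cells were all detected in every library. The 12 neutrophil and monocyte markers, all detected in every LSK library, summed to 979 and 871 CPM in KO cells, against 1365 and 1325 CPM in WT cells. The 8 matched stromal and endothelial markers, of 9 on that list, summed to 166 and 163 CPM in KO cells, against 245 and 197 CPM in WT cells. The part of either class in the LSK values below was not tested. In bulk RNA, fewer cells of a type and less RNA per cell cannot be told apart.

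In KU812 cells with ANP32B knocked down, GNL3 was the gene of the list that changed, and the other 36 listed genes did not pass the threshold of an adjusted p under 0.05. GNL3 encodes nucleostemin, a nucleolar GTPase of stem and cancer cells that takes part in large-subunit processing. It was lower by 0.69 on the log2 scale. The count for the list was 1 of 37 (2.7%), lower, against 16.6% of all 16529 genes tested in this comparison. Over all genes 9.06% were lower and 7.53% higher. Scaled by library totals alone, the split over all genes was 1182 lower and 1474 higher, against 1497 lower and 1244 higher as reported. The list count was also 1 with that scaling.

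The median log2 fold change over the 37 genes was -0.08, beside 0.00412 over all genes tested. Values below 0 belonged to 25 of the 37 genes (67.6%), against 49.6% of all genes. With library totals alone the median over the list was -0.03 and 21 of the 37 genes were below 0. Most of the estimates were tight: for 29 of the 37 genes the 95% confidence interval lay within 1.5-fold in both directions, against 34.2% of all genes, and for 36 within 2-fold, FBL being the exception. That places a bound on the size of the difference between these libraries, whose replicates may be technical. The bound does not show that the levels were equal.

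**Figure D1:**
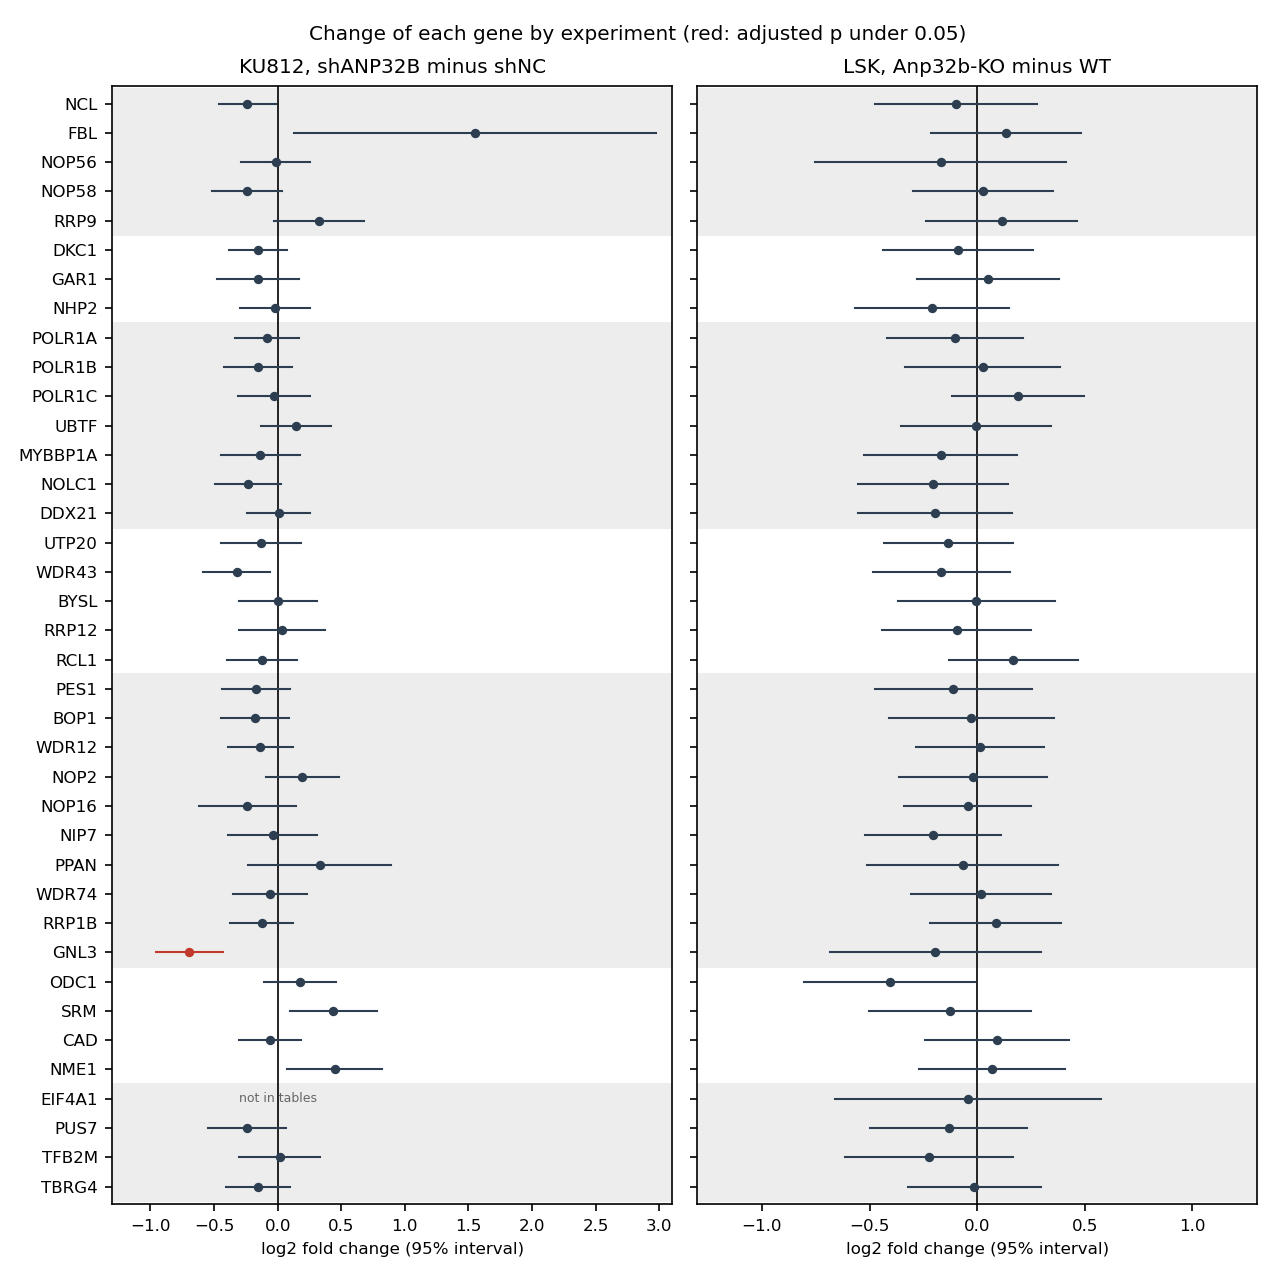
Log2 fold change (x axis) of each gene (y axis, grouped by role in shaded bands) with its 95% confidence interval, for shANP32B minus shNC in KU812 cells (left) and Anp32b-KO minus WT in LSK cells (right), 2 libraries per group; the x axes differ in range. GNL3 in KU812 cells, at -0.69, is the gene drawn in red for an adjusted p under 0.05, and FBL in KU812 cells has the widest interval.

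The shNC libraries differed from each other over nearly the whole list. In 36 of the 37 genes the second shNC library stood above the first, RCL1 being the exception, while this was so for 49.1% of all genes tested. The list took 0.446% and 0.437% of all counts in the shANP32B libraries, against 0.418% and 0.498% in the shNC libraries (95% Clopper-Pearson intervals, 0.443 to 0.448, 0.435 to 0.440, 0.416 to 0.420 and 0.496 to 0.501, which cover counting error only). By this summed share the shANP32B libraries therefore lay between the control libraries. Against the first shNC library alone the median log2 difference over the list was 0.12 and 0.02 for the first and second shANP32B library, and against the second shNC library alone it was -0.13 and -0.25.

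Which control library was left out set the sign of the list's median. In such fits the remaining single library is assumed to vary like the pair of the other group, which alone gives the spread, so their calls are less secure than those with all libraries. Without the first shNC library 10 genes were lower and 1 higher, against 9.92% of all genes lower and 8.73% higher in the same fit, and the list's median was -0.19. Without the second shNC library 1 gene was lower and 6 higher, against 12.6% of all genes lower and 10.2% higher, and the median was 0.05. The 10 lower genes were BOP1, GNL3, MYBBP1A, NCL, NOLC1, NOP16, NOP58, PES1, PUS7 and WDR43. The 6 higher ones were FBL, NME1, ODC1, RRP9, SRM and UBTF. FBL was the gene called higher in both fits, and GNL3 the gene called lower in both. Without the first shANP32B library 1 gene was lower and 0 higher, against 5.12% and 4.12% of all genes. Without the second 1 was lower and 1 higher (FBL), against 4.83% and 3.23%.

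**Figure D2:**
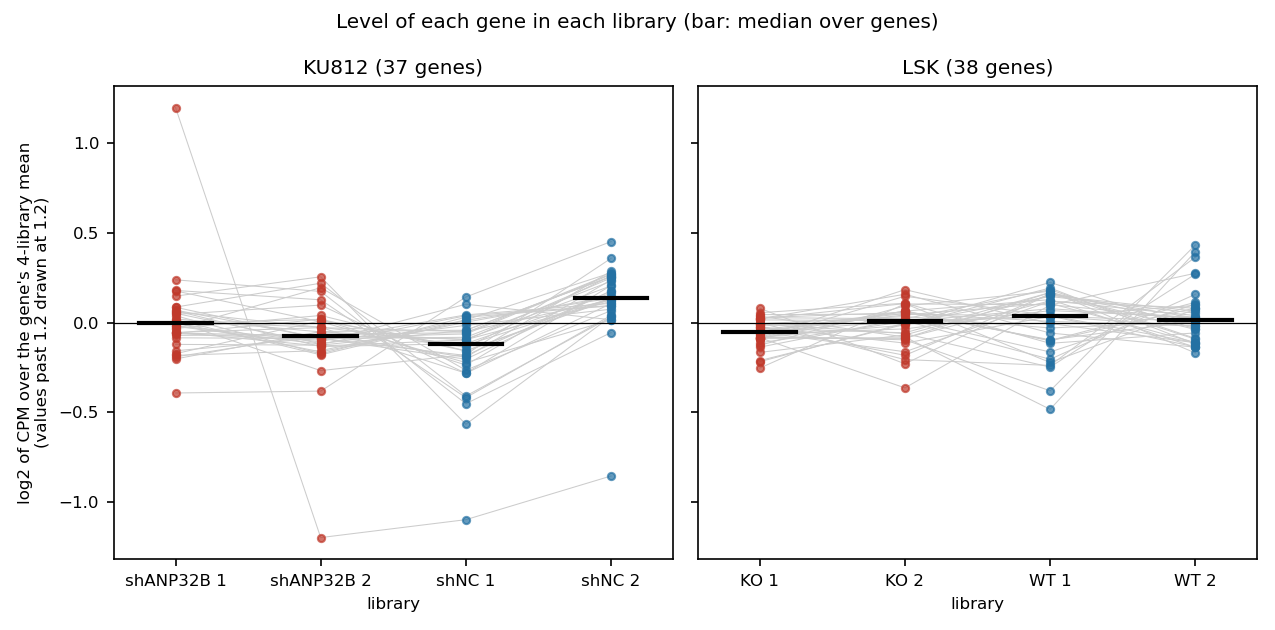
Level of each gene in each library as the log2 of its CPM over its mean across the 4 libraries of the experiment (y axis; values past 1.2 are drawn at 1.2), for KU812 (left) and LSK (right), with libraries on the x axis, a grey line per gene and a black bar at the median over genes. The second shNC library stands above the first in 36 of 37 genes, against 49.1% of all genes. Both shANP32B libraries lie below both controls in 11 genes and above both in 4, against 28.9% and 29.5% of all genes. FBL is the gene far above its mean in the first shANP32B library.

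Nucleolin was grouped with the proteins of box C/D ribonucleoproteins, which guide 2′-O-methylation of ribosomal RNA. None of these 5 genes passed the threshold (edgeR), where 16.6% of all genes did. An unadjusted p under 0.05 was reached by 2 of them, against 30.5% of all genes. The 95% interval lay within 1.5-fold for 3, against 34.2% of all genes. NCL encodes nucleolin, an abundant nucleolar RNA-binding protein. It stood at 897 and 894 CPM in shANP32B cells, against 947 and 1165 CPM in shNC cells. Both shANP32B libraries lay below both controls, and the log2 fold change of -0.24 (SE 0.10) had an adjusted p of 0.141 (edgeR). Without the first shNC library the log2 fold change of NCL was -0.38 (adjusted p = 3.75e-05, edgeR), with the spread taken from the shANP32B pair alone. NOP56 and NOP58, the paired scaffold proteins of the box C/D particle, had log2 fold changes of -0.01 and -0.24. RRP9, the protein that marks the U3 particle, stood at 35.8 and 34.6 CPM in shANP32B cells, against 23.7 and 32.5 CPM in shNC cells. Both of its shANP32B libraries were the higher ones, with a log2 fold change of 0.33 (adjusted p = 0.199).

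FBL, the box C/D methyltransferase fibrillarin, was read at very low counts in KU812 cells. There were 262 and 27 counts in the shANP32B libraries, against 49 and 51 in the shNC libraries, or 10.1 and 1.09 CPM against 1.75 and 2.08 CPM. The first shANP32B library stood alone above the rest, and the second was the lowest of the 4. The log2 fold change of 1.55 (SE 0.66, adjusted p = 0.129, edgeR) became -0.81 without the first shANP32B library, and FBL was called higher at 2.39 without the second. In LSK cells Fbl stood at 105 and 111 CPM in KO cells, against 88.6 and 109 CPM in WT cells. Every dividing cell needs this enzyme, so the KU812 counts of FBL are taken as uncertain, and no level is read from them.

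The box H/ACA proteins, which guide pseudouridylation and also bind telomerase RNA, gave 3 genes with no call. Over all genes 16.6% were called. DKC1, the pseudouridine synthase dyskerin, stood at 168 and 164 CPM in shANP32B cells, against 180 and 189 CPM in shNC cells, without overlap (log2 fold change -0.15, SE 0.11, adjusted p = 0.356, edgeR). GAR1, a partner protein of dyskerin, stood at 46.8 and 53.2 CPM in shANP32B cells, against 48.0 and 63.3 CPM in shNC cells. GAR1 and NHP2, another partner, had log2 fold changes of -0.15 and -0.02, and their groups overlapped. The GAR1 value was 0.05 without the second shNC library.

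The RNA polymerase I group held 7 genes, all of them with a 95% interval within 1.5-fold, against 34.2% of all genes. The catalytic subunit gene POLR1A stood at -0.08 on the log2 scale, the second largest subunit gene POLR1B at -0.15, and POLR1C, a subunit shared with RNA polymerase III, at -0.03. POLR1B had 71.9 and 62.8 CPM in shANP32B cells, against 71.8 and 78.2 CPM in shNC cells, which overlapped. UBTF, the factor that binds ribosomal DNA and keeps its genes open, stood at 198 and 205 CPM in shANP32B cells, against 158 and 207 CPM in shNC cells. Its groups overlapped, with a log2 fold change of 0.15. NOLC1, a nucleolar phosphoprotein that binds small nucleolar ribonucleoproteins, stood at 236 and 248 CPM in shANP32B cells, against 252 and 317 CPM in shNC cells. These groups did not overlap (log2 fold change -0.23, SE 0.12, adjusted p = 0.209, edgeR). MYBBP1A, a nucleolar protein known to act on p53 when it leaves the nucleolus, stood at -0.14, and the RNA helicase gene DDX21 at 0.00781.

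Small-subunit factors were led by WDR43, part of an early sub-complex of the small-subunit processome. It stood at 84.8 and 86.4 CPM in shANP32B cells, against 97.3 and 117 CPM in shNC cells. Both shANP32B libraries were below both controls, and the log2 fold change of -0.32 (SE 0.12) had an adjusted p of 0.0921 (edgeR). RCL1, a cyclase-like protein of the U3 pathway, stood at 51.4 and 48.3 CPM in shANP32B cells, against 55.9 and 52.6 CPM in shNC cells, without overlap (log2 fold change -0.12, adjusted p = 0.567, edgeR). UTP20 stood at -0.13, the 40S export factor gene RRP12 at 0.04 and BYSL, a late small-subunit factor, at 0.00259.

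In the large-subunit group GNL3 stood apart. Its counts were 2436 and 2347 in the shANP32B libraries, against 3810 and 4149 in the shNC libraries, or 94.3 ± 0.484 CPM against 153 ± 23.0 CPM (SD, n = 2 each). Both shANP32B libraries were lower than both controls, and the log2 fold change was -0.69 (SE 0.12, 95% interval -0.96 to -0.43, adjusted p = 0.00222, edgeR). The call was kept without each library in turn, with log2 fold changes from -0.84 to -0.54. PBRM1, whose mouse counterpart shares 15 exon bases with Gnl3 on the other strand, had a log2 fold change of 0.11 (adjusted p = 0.567). PES1, BOP1 and WDR12 form the PeBoW complex, which is needed for maturation of the large-subunit RNA. Their log2 fold changes were -0.17, -0.18 and -0.14, with no call. NOP2 stood at 70.5 and 62.5 CPM in shANP32B cells, against 53.4 and 63.0 CPM in shNC cells, an overlap with a log2 fold change of 0.19. NOP16, NIP7, WDR74 and RRP1B ranged from -0.24 to -0.04.

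PPAN, which acts on large-subunit RNA cleavage, was read at 183 and 192 counts in the shANP32B libraries, against 140 and 167 in the shNC libraries. That is 7.06 and 7.75 CPM against 5.01 and 6.79 CPM. In LSK cells Ppan stood at 235 and 227 CPM in KO cells, against 199 and 285 CPM in WT cells. No source used here says how reads shared between neighbouring genes were counted, and the KU812 level of PPAN is uncertain for that reason. The same holds for NME1, whose mouse counterpart shares 418 exon bases (12.5% of its exon length) on the same strand with the annotated gene Gm20390, and for EIF4A1. For the EIF4A1 locus the KU812 tables held the SENP3-EIF4A1 readthrough, at 0 and 5 counts in the shANP32B libraries, against 10 and 6 in the shNC libraries.

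Of the 4 supply genes, 3 had estimates above 0 and CAD one below. SRM, spermidine synthase, stood at 130 and 140 CPM in shANP32B cells, against 78.9 and 120 CPM in shNC cells. Both shANP32B libraries were above both controls (log2 fold change 0.44, SE 0.16, adjusted p = 0.0783, edgeR). NME1, a nucleoside diphosphate kinase, stood at 25.7 and 24.6 CPM in shANP32B cells, against 15.9 and 21.0 CPM in shNC cells. It too did not overlap (log2 fold change 0.45, SE 0.17, adjusted p = 0.0964, edgeR). Neither passed the threshold. Both passed it without the second shNC library, at 0.76 for SRM and 0.65 for NME1 (adjusted p = 1.07e-07 and 0.00567, edgeR, the spread again coming from the shANP32B pair alone), and SRM stood at 0.16 and NME1 at 0.26 without the first shNC library. ODC1, the first enzyme of polyamine synthesis, stood at 163 and 191 CPM in shANP32B cells, against 139 and 175 CPM in shNC cells, an overlap. Its log2 fold change was 0.18, and that of CAD, which starts pyrimidine synthesis, was -0.06. PUS7, a pseudouridine synthase, stood at 41.8 and 46.5 CPM in shANP32B cells, against 46.7 and 57.5 CPM in shNC cells (log2 fold change -0.24). TBRG4, a mitochondrial RNA factor, stood at 109 and 97.0 CPM in shANP32B cells, against 109 and 120.2 CPM in shNC cells (-0.16). Both lay below both controls without a call (adjusted p = 0.285 and 0.409, edgeR), by a narrow margin in the first library of TBRG4. TFB2M, a mitochondrial transcription factor, had a log2 fold change of 0.02.

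Counted without a test of overlap, shANP32B lay below both controls in 11 of the 37 genes and above both in 4, against 28.9% and 29.5% of all genes. The remaining 22 genes overlapped. An unadjusted p under 0.05 was reached by 6 genes of the list, against 30.5% of all genes.

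MYC itself was lower with the knockdown. It stood at 669.9 and 519 CPM in shANP32B cells, against 1088 and 1017 CPM in shNC cells, with a log2 fold change of -0.82 (SE 0.12, adjusted p = 0.000450, edgeR), and the call was kept without each library in turn. In LSK cells Myc stood at 328 and 330 CPM in KO cells, against 285 and 475 CPM in WT cells, without a call.

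The rest of the pathway was described from 11 further lists of 201 genes, of which 199 were tested in KU812 cells. There 29 fell and 4 rose, while 9.06% of all genes tested were lower and 7.53% higher. The 33 calls in all made 16.6%, the same share as over all genes tested, but the split by direction was not the same. The median log2 fold change was -0.14, and it was -0.24 without the first shNC library, -0.03 without the second and -0.08 with library totals alone. With library totals alone the split was 22 lower and 7 higher. In 165 of the 199 genes the second shNC library stood above the first, against 49.1% of all genes. The calls of 9 genes were kept when any 1 library was left out, and the total moved with that over all genes. It was 13 (6.53%) without the first shANP32B library, against 9.24% of all genes, and 13 (6.53%) without the second, against 8.07%. Without the first shNC library it was 60 (30.2%), 54 lower and 6 higher, against 18.7% of all genes. Without the second it was 49 (24.6%), 32 lower and 17 higher, against 22.8%.

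These 9 were HEATR1, RSL24D1, SPATA5, NPM1, EXOSC5, SAT1 and EIF4B, which fell, and POLR2L and AATF, which rose. How many calls over all genes were kept in the same way was not counted, so no share stands beside the 9. HEATR1, a scaffold of the small-subunit processome that is also needed for ribosomal RNA transcription, averaged 116 ± 6.32 CPM in shANP32B cells and 189 ± 6.86 CPM in shNC cells (SD, n = 2 each), a log2 fold change of -0.71. RSL24D1, whose yeast counterpart holds a place on the large subunit for a ribosomal protein, stood at -0.73, and SPATA5, whose yeast counterpart is the ATPase that releases it, at -0.65. EXOSC5, a core subunit of the RNA exosome, which trims ribosomal RNA precursors, averaged 23.5 ± 1.10 CPM in shANP32B cells and 45.9 ± 0.677 CPM in shNC cells (SD, n = 2 each), a log2 fold change of -0.96. NPM1, the abundant nucleolar histone chaperone nucleophosmin, stood at 735 and 747 CPM in shANP32B cells, against 989 and 1073 CPM in shNC cells (log2 fold change -0.48, adjusted p = 0.00356, edgeR). AATF, a small-subunit processome gene, stood at 37.4 and 11.2 CPM in shANP32B cells, against 1.22 and 3.17 CPM in shNC cells. Its counts were 970 and 278 in the shANP32B libraries, against 34 and 78 in the shNC libraries. Replicates of AATF differed widely within each group, and the first shANP32B library was the highest, as it was for FBL. The level of AATF and the size of its rise are therefore taken as uncertain.

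By list, calls are read beside 16.6% of all genes, 9.06% lower and 7.53% higher. They made up 40% of the eIF4F list and 33.3% of both the snoRNP list and the nucleophosmins. The share was 27.3% in the polyamine list and 25% in the purine and pyrimidine list. It was 13.5% in the large-subunit, 13.3% in the exosome, 10.8% in the small-subunit processome and 10% in the mitochondrial list. The snoRNP core and assembly genes had 4 of 12 lower. NAF1, an assembly factor of box H/ACA particles, stood at -0.53, PIH1D1 at -0.43 and NUFIP1 at -0.64. NAF1 and PIH1D1 lost the call without either shANP32B library, and NUFIP1 also without the second shNC library. The large-subunit list had 7 of 52 lower and 0 higher, with GLTSCR2, which binds the 5S particle, at -0.42, a call lost without the first shANP32B library. The small-subunit processome list had 3 of 37 lower and 1 higher, with BMS1, a GTPase, at -0.37, a call lost without either shANP32B library. In the late small-subunit list 0 of 11 passed (edgeR), and 4 had an unadjusted p under 0.05, a limit that 30.5% of all genes were under. Its smallest p belonged to LTV1 (0.47), NOB1 (-0.36) and WBSCR22 (0.35).

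In the polyamine list 3 of 11 genes were lower (27.3%, against 9.06% of all genes). SAT1, which acetylates spermidine and spermine for export, averaged 71.1 ± 0.675 CPM in shANP32B cells and 106 ± 11.2 CPM in shNC cells (SD, n = 2 each), a log2 fold change of -0.58 (adjusted p = 0.00574, edgeR). AMD1 and SMS, which act beside SRM in spermidine and spermine synthesis, stood at -0.37 and -0.40, calls that were lost without either shANP32B library. In the purine and pyrimidine list 5 of 20 genes were lower, with PAICS and GMPS of purine synthesis at -0.44 and -0.46 and the ribonucleotide reductase gene RRM1 at -0.48. PAICS lost the call without the second, RRM1 without the first and GMPS without either shANP32B library.

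In the RNA polymerase I list 1 of 18 genes was lower and 1 higher (11.1%, against 16.6% of all genes), and 15 of the 18 estimates lay below 0. POLR2K, at -0.83, and POLR2L, at 0.84, are small subunits shared by all 3 nuclear RNA polymerases. The POLR2K call was lost without the first shANP32B library. TCOF1, the nucleolar protein treacle, stood at -0.34 without a call. In the exosome list 2 of 15 were lower, EXOSC5 and EXOSC2 (-0.50), the EXOSC2 call being lost without either shANP32B library, and SKIV2L2, the helicase of the nuclear exosome, stood at -0.31 without a call. The eIF4F list had 2 of 10 lower and 2 higher, with EIF4B (-0.47), EIF4G2 (0.48) and EIF4G3 (0.48). EIF4G2 lost its call without the second and EIF4G3 without either shANP32B library. The mitochondrial list had 1 of 10 lower, TFAM (-0.50), a call lost without either shANP32B library, beside TFB1M (0.41) and FASTKD1 (-0.38) without a call. Of the nucleophosmins 1 of 3 was lower, and NPM2 and NPM3 stood at -0.25 and -0.14.

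**Figure D3:**
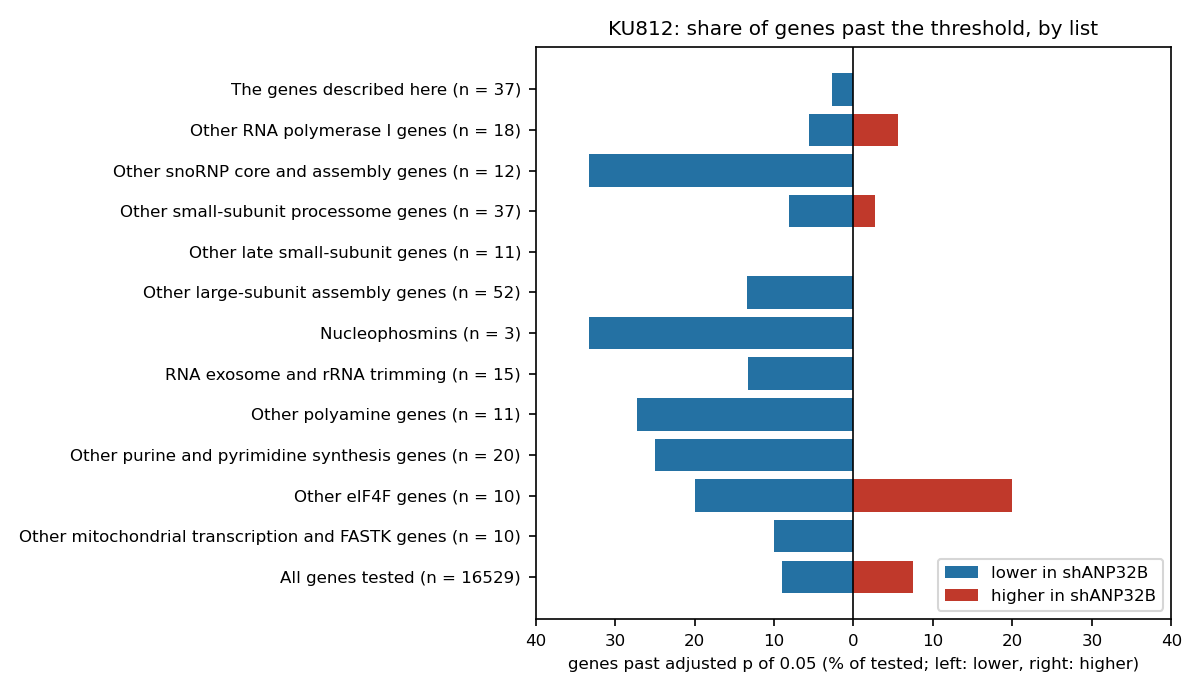
Share of tested genes past an adjusted p of 0.05 in KU812 cells (x axis, percent; bars to the left are lower and bars to the right higher in shANP32B than in shNC), for the genes described here, the 11 further lists and all genes tested (y axis, with the number tested). The genes described here show 1 call, lower, of 37 (2.7%), against 16.6% over all genes.

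In LSK cells the list showed no call. None of the 38 genes passed the threshold (edgeR), 1 had an unadjusted p under 0.05, and DESeq2 and limma-voom also called 0 of them. Over all 14598 genes tested the share called was 0%, and 4.5% had an unadjusted p under 0.05. The median log2 fold change over the list was -0.06, beside -0.00790 over all genes. Values below 0 belonged to 26 of the 38 genes, against 51.4% of all genes, and to 20 with library totals alone. For 33 of the 38 genes the 95% interval lay within 1.5-fold in both directions, against 42.8% of all genes, and for all 38 within 2-fold.

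The gene with the smallest p was Odc1. It stood at 539 and 444 CPM in KO cells, against 612 and 692 CPM in WT cells. Both KO libraries lay below both WT libraries, with a log2 fold change of -0.41 (SE 0.17, unadjusted p = 0.0453, adjusted p = 0.986, edgeR). Nip7, a large-subunit factor, stood at 46.0 and 42.6 CPM in KO cells, against 51.7 and 50.4 CPM in WT cells (log2 fold change -0.21). Polr1c stood at 62.6 and 68.8 CPM in KO cells, against 59.3 and 56.1 CPM in WT cells (0.19), and was the gene of these 4 with KO above WT. Nolc1 stood at 238 and 276 CPM in KO cells, against 306 and 287 CPM in WT cells (-0.21). None of these groups overlapped, and each adjusted p was 0.986 (edgeR). In all, KO lay below both WT libraries in 11 genes and above both in 4, against 15.6% and 17.7% of all genes.

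Among the 11 further lists 0 of 199 tested genes passed in LSK cells (edgeR), against 0% of all genes. An unadjusted p under 0.05 was found for 2, against 4.5% of all genes. These were Imp3, of the U3 particle (log2 fold change 0.46), and Exosc5 (0.30). Npm1 stood at 1120 and 1215 CPM in KO cells, against 1435 and 1324 CPM in WT cells (log2 fold change -0.24, adjusted p = 0.986, edgeR). The gene of smallest p in each other list had a log2 fold change of 0.36 (Ptrf), -0.32 (Nufip1), -0.28 (Tsr2), -0.30 (Rpf1), 0.29 (Npm3), 0.35 (Oaz1), -0.23 (Impdh2), -0.29 (Eif4e) and -0.28 (Fastkd2).

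Levels between genes were compared in LSK cells per kilobase of annotated exon (GENCODE M21, GRCm38), which was possible for all 38 genes. In the order of the WT means, Odc1 came first with 144 ± 19.8 in KO cells and 191 ± 16.6 CPM per kilobase in WT cells (SD, n = 2 each). Ncl came next with 174 ± 2.46 in KO cells and 186 ± 3.43 CPM per kilobase in WT cells (SD, n = 2 each). In WT cells these neighbours did not differ beyond their spread. In KO cells both libraries of Ncl (172 and 176) stood above both of Odc1 (158 and 130). Nhp2, Nop56 and Srm followed, with WT means from 96.2 to 106 CPM per kilobase, again within their spread. At the low end Wdr12 stood at 6.13 ± 0.273 in KO cells and 6.08 ± 0.0771 CPM per kilobase in WT cells (SD, n = 2 each), Utp20 at 8.31 ± 0.374 in KO cells and 9.11 ± 0.275 CPM per kilobase in WT cells, and Tfb2m at 7.96 ± 0.380 in KO cells and 9.30 ± 0.40 CPM per kilobase in WT cells. The RNA polymerase I subunit genes Polr1a, Polr1b and Polr1c had WT means of 11.7, 14.5 and 25.3 CPM per kilobase. Exon length here is the union over all annotated transcripts, so genes with long rare exons come out low.

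**Figure D4:**
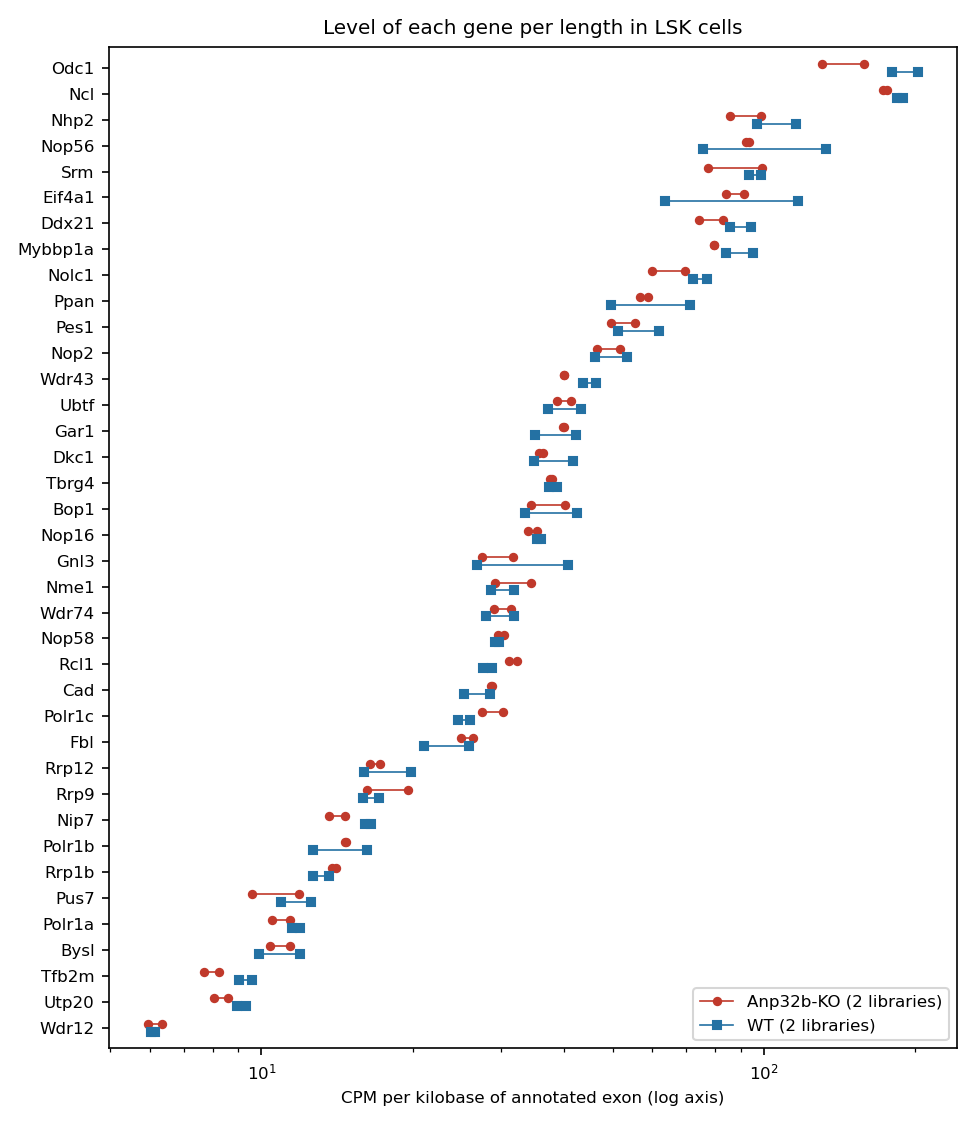
Level of each gene in LSK cells in CPM per kilobase of annotated exon (x axis, log scale), ordered by the WT mean (y axis), with 2 KO libraries (red circles) above 2 WT libraries (blue squares) in each row. Odc1 and Ncl head the order at WT means of 191 and 186, Wdr12 closes it at 6.08, and Nop56, Eif4a1, Ppan and Gnl3 show the widest gaps between WT libraries.

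The WT libraries differed most in 4 genes. Eif4a1 stood at 396 and 365 CPM in KO cells, against 276 and 508 CPM in WT cells. Nop56 stood at 382 and 378 CPM in KO cells, against 310 and 545 CPM in WT cells. Gnl3 stood at 193 and 168 CPM in KO cells, against 164 and 249 CPM in WT cells, and Ppan showed the same order of WT libraries. In each of these genes the KO libraries lay between the WT libraries. The second WT library was 1.84-fold above the first for Eif4a1, 1.76-fold for Nop56, 1.52-fold for Gnl3 and 1.43-fold for Ppan.

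All 4 of these genes carry small nucleolar RNA genes inside them on the same strand in GENCODE M21, with 3 in Eif4a1, 5 in Nop56, 3 in Gnl3 and 2 in Ppan. Of the list, 10 genes hold such RNAs and 28 do not, and 4 of the 10 but 0 of the 28 were more than 1.4-fold higher in the second WT library than in the first, a limit set after the values were seen. Ncl, Nop58, Wdr43, Tbrg4, Dkc1 and Odc1 also hold them, with ratios of 0.974, 1.02, 0.945, 0.964, 0.835 and 1.13. Across the other coding genes the same gap was seen in 15 of 186 with such an RNA inside (8.06%) and in 1587 of 11580 with none (13.7%). Without the second WT library Eif4a1 was called higher in KO cells, 1 of 38 genes, against 2.96% of all genes lower and 2.45% higher in that fit, and the Gnl3 log2 fold change was 0.14, against -0.19 with all libraries. None of the 38 genes passed (edgeR) without the first WT library, against 0.146% of all genes lower and 0.0926% higher, without the first KO library, against 0.00651% lower and 0.026% higher, or without the second KO library, where 0% passed either way.

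The exons of 12 of the 38 mouse genes share bases with another coding gene. The share is largest for Nme1, then for Bysl, which shares 9.37% of its exon length with Ccnd3 on the other strand, and is at most 4.56% for the other 10. No source used here gives the strand setting of the counting, so reads in these bases cannot be told apart.

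Whether a gene responded differently in KU812 and LSK cells was tested with an interaction term, fitted to the 8 libraries together for 10771 symbols found in both species. None of the 37 genes passed (edgeR), against 2.22% of all tested symbols, and 2 had an unadjusted p under 0.05, against 17.9%. DESeq2 called 0 of the 37, against 5.32% of all symbols. The largest contrasts by p were in the supply genes. The ODC1 change in KU812 cells exceeded that of Odc1 in LSK cells by 0.60 on the log2 scale (SE 0.22, unadjusted p = 0.0201, adjusted p = 0.183, edgeR), with 0.18 in KU812 cells and -0.41 in LSK cells. For SRM the difference was 0.58 (SE 0.26, adjusted p = 0.265), and for NME1 0.40 (SE 0.21, adjusted p = 0.365). In LSK cells Srm stood at 124 and 158 CPM in KO cells, against 158 and 149.7 CPM in WT cells, and Nme1 at 97.4 and 115 CPM in KO cells, against 107 and 95.9 CPM in WT cells, with overlap in both. For GNL3 it was -0.48 (SE 0.26, adjusted p = 0.373, edgeR), with -0.69 in KU812 cells and -0.19 in LSK cells. The call of GNL3 in KU812 cells alone is thus not shown to differ from the LSK value. Without the second WT library GNL3 passed in this test at -0.81, where 6.63% of all symbols passed, and without the second shANP32B library FBL did at 2.28, where 0.491% passed. The experiments differ in species, cell and kind of loss, and these cannot be told apart.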

How the data were processed

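Total RNA was taken with Trizol and made into 8 standard Illumina libraries, 2 per group, per the labels' protocols. What the authors deposited is a table of raw counts for each library, whole numbers by gene symbol. GRCm38, GRCh38, DESeq, Cufflinks, TopHat and HISAT2 are named, without roles or versions, per the submitters' processing notes. No source used here gives the counting tool, annotation or strand setting. Genes summing to under 10 counts over the 4 libraries of an experiment do not occur in its tables.

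The KU812 and LSK tables were fitted separately in R 4.3.3 by edgeR 4.0.16 (filterByExpr, TMM scaling, quasi-likelihood test, Benjamini-Hochberg over all genes tested, threshold 0.05, two-sided). CPM values use TMM-scaled library sizes, and 3 counts stand for 0.106 to 0.123 CPM in KU812 and 0.191 to 0.284 CPM in LSK libraries. Log2 fold changes are those edgeR reports, and the SE and 95% interval belong to the unmoderated coefficient, which the figure of changes plots. Genes were paired between species by upper-case symbol, where unique. The tests were tried on simulated counts with known changes. Replicates differed by more than sampling noise (chi-square of 7.70 to 47.7 per degree of freedom), so none was counted as a copy.

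The members and lists were chosen with earlier results of these data known. Every member may be named. Values in every library are given for the called gene, up to 2 genes of smallest p per role, and 4 in LSK and in the interaction. Further lists show 3 genes of smallest p in KU812 and 1 in LSK, beside NPM1, MYC and ANP32B. The account of calls kept in every leave-out, the WT library gap, PBRM1, the SENP3-EIF4A1 row and the library values of RRP9, UBTF and PPAN were picked after values were seen. WDR46 and POLR1H in the KU812 tables and Ctps1 and Mterf1 in the LSK tables had no matching symbol. Alternatives are scaling, filter, DESeq2 1.42.0, limma 3.58.1 (voom with quality weights), a replicate block and leaving out each library. The further lists were put through them after the data were seen.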

Additional observations from a re-analysis of the deposited data

How the results depend on the processing

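With 2 libraries per group, calls rest on few samples, and LSK libraries were shallower than KU812 libraries. Of all genes in KU812 cells 16.6% passed as reported and with relative log expression scaling, and 16.1% with library totals alone. With no filter 13.4% passed, with DESeq2 13.5% and with limma-voom 17.1%. In LSK cells 0% to 0.0877% passed under these settings. In the difference between experiments, without limma-voom, 2.19% to 5.32% passed. Leave-out shares for KU812 and LSK cells stand in the Results. Of the 37 genes tested in KU812 cells, 1 passed under relative log expression scaling, library totals alone, no filter and DESeq2, as reported, 2 passed under limma-voom (GNL3 and SRM), and 1 to 11 passed when a library was left out. In LSK cells 0 to 1 passed with a library left out and 0 under the other settings, and the median log2 fold change was -0.0121 with library totals alone, against -0.06. In the test of the difference between experiments 0 to 1 passed with a library left out. Of the further lists in KU812 cells, put through the settings after the data were seen, 13 to 60 passed with a library left out (6.53% to 30.2%), while 8.07% to 22.8% of all genes did.

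The labels give groups the same replicate numbers without saying that they mark a shared animal, litter or day. For that reason the numbers were not taken as pairs. Deviations of same-numbered libraries correlated at 0.116 in KU812 and -0.0687 in LSK. With 2 pairs each, these values cannot decide whether the numbers mark pairs. With the replicate number as a block, 6 of the 37 genes passed in KU812 cells (FBL, GNL3, NCL, NME1, SRM and WDR43), 0 in LSK cells and 0 in the difference, beside 57 genes of the further lists (28.6%). Over all genes 4164 (25.2%), 15 and 285 passed in these fits.

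Signs turned only for small or unsteady values. With library totals alone NIP7 stood at 0.0188 and POLR1C at 0.0265 in KU812 cells, and Nop2 at 0.0256 and Tbrg4 at 0.0333 in LSK cells. The NOLC1 difference was 0.00212 with relative log expression scaling, 0.00132 with DESeq2 and 0.00448 with the replicate block. With a library left out, values in KU812 cells ranged from -0.81 to 2.39 for FBL, -0.35 to 0.0494 for GAR1, -0.26 to 0.21 for NIP7 and -0.14 to 0.0700 for POLR1C. In LSK cells they ranged from -0.21 to 0.0453 for Dkc1, -0.0125 to 0.28 for Fbl, -0.0812 to 0.19 for Gar1, -0.47 to 0.14 for Gnl3, -0.0549 to 0.18 for Nme1, -0.13 to 0.0872 for Nop2, -0.15 to 0.21 for Polr1b, -0.30 to 0.0151 for Pus7, -0.32 to 0.0414 for Srm and -0.0427 to 0.0111 for Tbrg4. For the difference they ranged from -0.17 to 0.0741 for DKC1, -0.91 to 2.28 for FBL, -0.36 to 0.0232 for GAR1, -0.25 to 0.0302 for NCL, -0.0193 to 0.44 for NIP7, -0.15 to 0.16 for NOLC1, -0.35 to 0.0196 for POLR1B and -0.23 to 0.0792 for PUS7. The cause was not tested.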
